A study of Mus musculus with 9 samples.

Results

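The RNA of 10 genes of the actin cytoskeleton and of smooth muscle was followed through mouse embryonic stem (ES) cells of 3 lines in 3 culture conditions. They were Tagln, Acta2, Actb, Actg1, Cnn1, Cnn2, Myl9, Tpm1, Tpm2 and S100a6, found by exact gene name among the 24044 named rows of the expression table. All 10 passed the filter on low values, which 12711 genes passed by reaching 1 FPKM in 3 or more of the 9 libraries. FPKM counts fragments per kilobase of transcript and per number of mapped fragments, so levels of different genes can be set side by side. The genes were chosen by their measured levels in these same libraries, with the differences between the conditions already known. Levels and differences of the 10 are therefore given as a description with no p-value. Counts of calls among them are given only beside those of all genes.

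The cell lines were E14, Oct4 GiP and v6.5, all at passages 20 to 23 and all kept on gelatin over the 2 weeks. The conditions were Serum, 2i and Paused. Paused cells were exposed to INK128, which blocks the kinase mTor, at a dose of 200 nM throughout, and the labels name no base medium for them. The labels do not say what 2i contained, a name commonly used for blocking MEK and GSK3. Each line gave 1 library in each condition, so n = 3 libraries per condition, and ERCC spike-in RNA was added to all. The comparisons ask how inhibiting mTor changes the transcriptome of pluripotent cells.

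Actin filaments give cells their shape and, with myosin, their tension. Cytoplasmic beta and gamma actin build the filaments of nearly every cell, while alpha smooth muscle actin, transgelin (Tagln, also SM22), calponin and the myosin light chain Myl9 are classic genes of contractile cells. Many of these genes are switched on by the serum response factor SRF with its coactivators of the MRTF family, which are held in the cytoplasm by monomeric actin. SRF binds a DNA motif called the CArG box. Cells on stiff, adhesive surfaces and in serum are known to use this pathway.

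The promoters of the genes were read for the CArG box. RefSeq's promoter table (build GRCm38.p6) matched 8 of the 10 genes, all but Tagln and Actb. The 250 bases before the start site given there were searched on both strands for the strict CArG box and for forms with 1 C or G among its inner letters. A strict box was found in Actg1, Cnn2 and Myl9. Acta2 held a pair of boxes with 1 inner C or G, and Myl9 held 1 such box beside its strict one. Of all 32851 windows of this length in the table, 1.47% held a strict box and 8.59% held either form. No match was found in these windows of Cnn1, Tpm1, Tpm2 and S100a6. The Tpm1 window (67049214 to 67049463) lay wholly within the annotated gene (67022590 to 67049672), so bases before the gene's outer end were not searched. That of Acta2 lay mostly within its gene, which ends at 34255585. Those of Cnn1, Myl9 and Tpm2 overlapped their genes in part. The 4 windows with a match are shown 5′ to 3′ on the gene's strand, with the matches in capitals.
Acta2, chr19:34255374-34255623, minus strand: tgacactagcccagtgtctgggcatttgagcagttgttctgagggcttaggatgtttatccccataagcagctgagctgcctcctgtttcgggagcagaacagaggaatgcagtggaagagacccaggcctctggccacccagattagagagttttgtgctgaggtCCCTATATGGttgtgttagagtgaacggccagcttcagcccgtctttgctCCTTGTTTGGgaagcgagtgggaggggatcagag
Actg1, chr11:120348496-120348745, minus strand: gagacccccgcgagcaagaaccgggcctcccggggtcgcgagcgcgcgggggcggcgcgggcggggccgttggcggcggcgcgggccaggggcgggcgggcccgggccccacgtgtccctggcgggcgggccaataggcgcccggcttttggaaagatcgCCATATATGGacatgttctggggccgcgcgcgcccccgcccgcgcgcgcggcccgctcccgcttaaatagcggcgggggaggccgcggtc
Cnn2, chr10:79988350-79988599, plus strand: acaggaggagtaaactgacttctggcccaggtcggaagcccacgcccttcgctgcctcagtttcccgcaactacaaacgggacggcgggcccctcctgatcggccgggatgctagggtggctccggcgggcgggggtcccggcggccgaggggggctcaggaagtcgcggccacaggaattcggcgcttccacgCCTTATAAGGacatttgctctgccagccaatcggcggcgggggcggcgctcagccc
Myl9, chr2:156775214-156775463, plus strand: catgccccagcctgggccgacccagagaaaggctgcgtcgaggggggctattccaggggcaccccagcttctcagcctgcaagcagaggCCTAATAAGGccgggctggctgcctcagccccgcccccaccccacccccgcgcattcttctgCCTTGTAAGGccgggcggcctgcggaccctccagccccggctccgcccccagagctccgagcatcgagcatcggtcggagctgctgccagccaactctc

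The matches of Acta2 begin 84 and 34 bases before the start site of the promoter table, and that of Actg1 begins 90 bases before it. The strict box of Cnn2 begins 56 bases before the start, and that of Myl9 begins 161 bases before it. A match describes the letters only, and binding was not measured.

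The cells carried the markers of ES cells, while Myh11, Myocd and Lmod1 of mature smooth muscle stayed low. Pou5f1 (Oct4) ran from 998 to 1859 FPKM and Dppa5a from 1416 to 2672 FPKM over the 9 libraries. Of 7 smooth muscle markers, which include Acta2 and Cnn1 themselves, Myh11, the smooth muscle myosin heavy chain, was at most 0.302 FPKM, Myocd, the cardiac and smooth muscle coactivator of SRF, at most 0.0706 and Lmod1 at most 0.607. Desmin (Des) ran from 0.435 to 3.48 FPKM and smoothelin (Smtn) from 10.6 to 22.8. The smooth muscle label is used here for the genes and not for the cells. Tagln, Cnn1, Acta2 and Myl9 were measured with the myosin of that cell type at 0.302 FPKM or less. Bulk RNA does not show whether a few cells were differentiating, which was not tested.

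The beta and gamma actins were among the most abundant transcripts and were highest in Serum. Actb stood at 2758, 2843 and 2467 FPKM in Serum, in the order E14, v6.5, Oct4 GiP used throughout, at 2193, 1878 and 1602 in 2i, and at 1882, 2378 and 2083 in Paused. All 3 Serum libraries lay above every other library. Those of 2i and Paused overlapped. Among all named rows Actb ranked between 22 and 30 in the Serum libraries and between 31 and 73 in the others. Actg1 stood at 1581, 1894 and 1556 FPKM in Serum, at 1051, 771 and 932 in 2i, and at 863, 1375 and 640.5 in Paused. Serum was again highest without overlap, and the v6.5 Paused library stood apart from the other Paused libraries. The difference in log2(FPKM + 1) between Paused and Serum was -0.35 ± 0.17 for Actb and -0.87 ± 0.41 for Actg1 (SD over the 3 lines). Between 2i and Serum it was -0.52 ± 0.16 for Actb and -0.87 ± 0.37 for Actg1.

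Alpha smooth muscle actin, Acta2, was a trace component of the 3 actins. It stood at 12.5, 4.97 and 8.29 FPKM in Serum, at 2.41, 2.01 and 2.41 in 2i, and at 2.87, 3.22 and 2.58 in Paused. The 3 conditions did not overlap, in the order 2i, Paused, Serum, with 2i and Paused close together. Acta2 made up 0.199% ± 0.092 (SD, n = 3) of the summed FPKM of the 3 actins in Serum, 0.0817% ± 0.012 in 2i and 0.0949% ± 0.0094 in Paused. The lowest Serum share, 0.105% in v6.5, was next to the highest Paused share of 0.104%. Actb made up 61.5% ± 1.73 of the sum in Serum, 67.2% ± 3.86 in 2i and 69.4% ± 6.60 in Paused, and all 3 conditions overlapped. The sum itself was 4375 ± 355 FPKM in Serum, 2811 ± 381 in 2i and 3077 ± 588 in Paused.

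The coding sequences of the actins are close to each other, which bears on how fragments are assigned. In the GENCODE M21 transcripts Actb and Actg1 shared 88.7% of 1128 coding bases, and their longest identical run was 62 bases. Acta2 shared 82.8% of aligned bases with Actb and 81.5% with Actg1. How the authors' counting treated fragments that match several actins or their pseudogenes is not stated, so levels of single actins are uncertain. The first 30 coding bases show how the pair differs at the start of the protein, the segment in which actin isoforms are known to diverge. Capitals mark the 8 bases that differ.
Actb: atggaTgaCgaTatcgcTgcGctGgtcGtC
Actg1: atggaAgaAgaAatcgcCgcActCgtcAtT

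**Figure D1:**
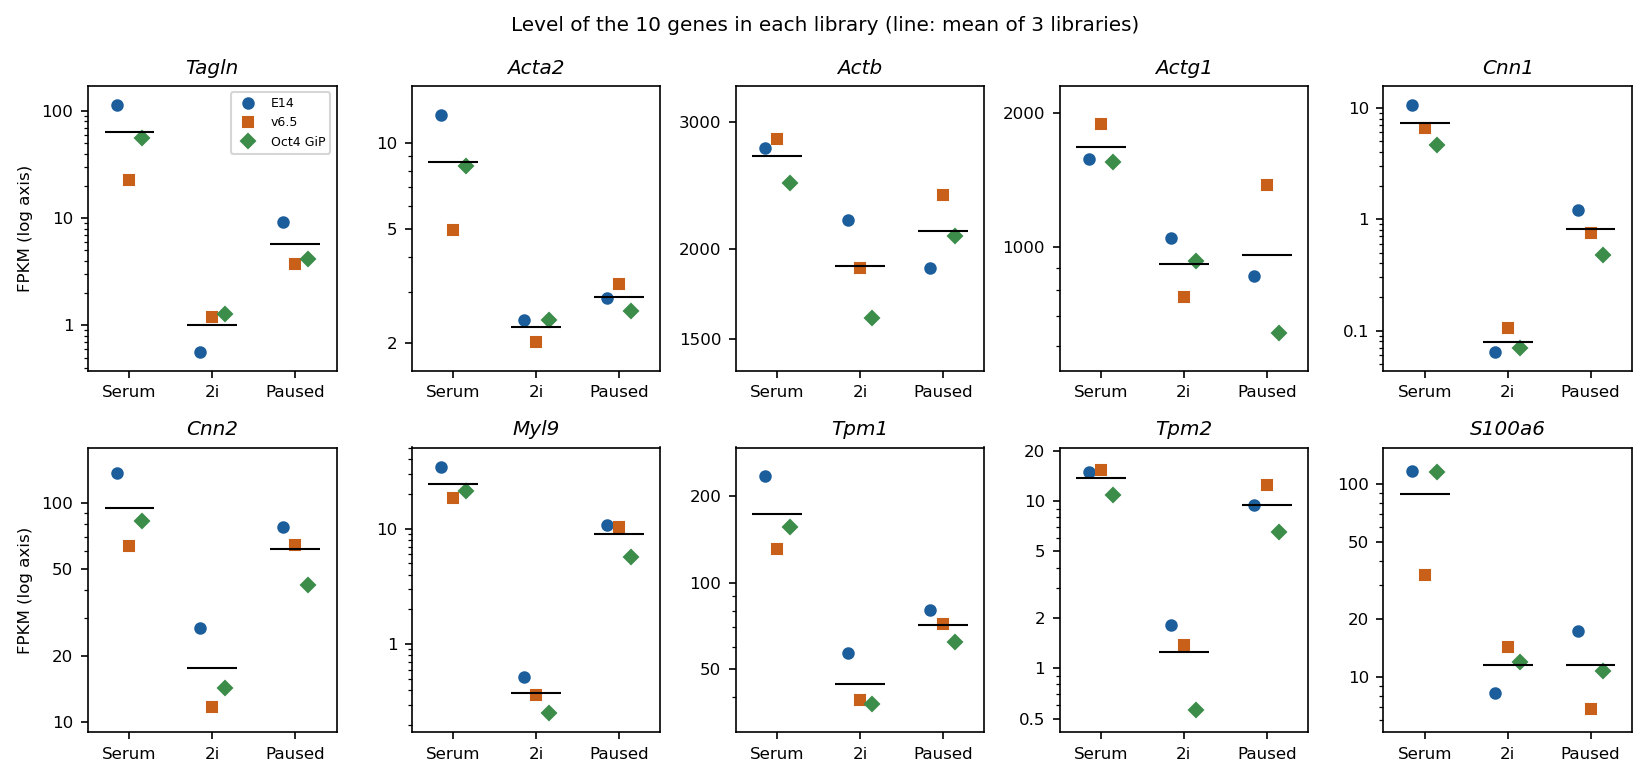
FPKM on a log axis of each gene in each library, by condition, with 1 point per line (E14, v6.5, Oct4 GiP) and a bar at the mean of the 3 libraries. All 10 genes have their highest mean in Serum, and Tagln spans from 0.565 FPKM in E14 2i to 114 in E14 Serum.

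Transgelin and the calponins bind actin filaments and carry related domains. Tagln stood at 114, 22.5 and 55.8 FPKM in Serum, at 0.565, 1.19 and 1.29 in 2i, and at 9.24, 3.77 and 4.18 in Paused. The conditions did not overlap, although the lines within Serum differed by 5.06-fold. As a ratio of FPKM, Serum exceeded 2i by 201-fold in E14, 18.8-fold in v6.5 and 43.3-fold in Oct4 GiP. The 2i values below these ratios rest on an unknown number of fragments, that of E14 at 0.565 FPKM most of all. Serum exceeded Paused by 12.3-fold, 5.97-fold and 13.3-fold. Bulk RNA cannot tell fewer cells that express a gene from less of its RNA in each cell. Cnn1, the calponin of smooth muscle, stood at 10.6, 6.64 and 4.67 FPKM in Serum, at 0.0644, 0.104 and 0.0694 in 2i, and at 1.2, 0.745 and 0.481 in Paused. Its conditions were fully apart too, and its 2i levels were so low that ratios to them are not given, since the depth of the libraries is unknown. The difference in log2(FPKM + 1) was -2.15 ± 0.23 between Paused and Serum and -2.88 ± 0.52 between 2i and Serum. That scale understates changes of genes with low FPKM.

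Cnn2, the calponin of non-muscle cells, kept more of its level in Paused. It stood at 137, 63.5 and 82.1 FPKM in Serum, at 26.9, 11.7 and 14.3 in 2i, and at 77.8, 63.9 and 42.0 in Paused. Libraries of 2i were below all others, while Serum and Paused overlapped. In v6.5 Serum and Paused were almost equal, with a difference of 0.0099 in log2(FPKM + 1), against -0.81 in E14 and -0.95 in Oct4 GiP. In log2(FPKM + 1) Paused lay at 75.4% of the distance from 2i to Serum for Cnn2, averaged over the lines. Cnn1 and Cnn2 share 63.3% of aligned coding bases, with no identical run over 22 bases.

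Myl9, a regulatory light chain of myosin II that is phosphorylated to start contraction, was nearly absent from 2i and well measured in Paused. It stood at 34.3, 18.5 and 21.0 FPKM in Serum, at 0.523, 0.363 and 0.253 in 2i, and at 10.8, 10.3 and 5.72 in Paused. No conditions overlapped. Paused exceeded 2i by 20.6-fold in E14, 28.4-fold in v6.5 and 22.6-fold in Oct4 GiP, as ratios of FPKM whose lower values rest on an unknown number of fragments. The difference in log2(FPKM + 1) was 2.81 ± 0.34 between Paused and 2i, the largest of the 10 genes in that comparison, and -1.36 ± 0.51 between Paused and Serum.

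The tropomyosins, which lie along actin filaments and control the access of myosin, differed in how they stood in Paused. Tpm1 stood at 235, 131 and 157 FPKM in Serum, at 56.8, 39.1 and 38 in 2i, and at 80.3, 71.8 and 62.2 in Paused, with no overlap between conditions. Tpm2 stood at 14.9, 15.4 and 10.9 FPKM in Serum, at 1.81, 1.38 and 0.561 in 2i, and at 9.40, 12.4 and 6.55 in Paused. For Tpm2 the 2i libraries were far below the rest, and Serum and Paused overlapped. In log2(FPKM + 1) Paused lay at 36.3% of the distance from 2i to Serum for Tpm1 and at 81.0% for Tpm2. The ratio of Tpm1 to Tpm2 in FPKM was 15.8, 8.51 and 14.4 in Serum, 31.4, 28.4 and 67.8 in 2i, and 8.53, 5.77 and 9.48 in Paused. In each line the ratio was highest in 2i and lowest in Paused, while the v6.5 Serum library fell within the range of Paused.

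**Figure D2:**
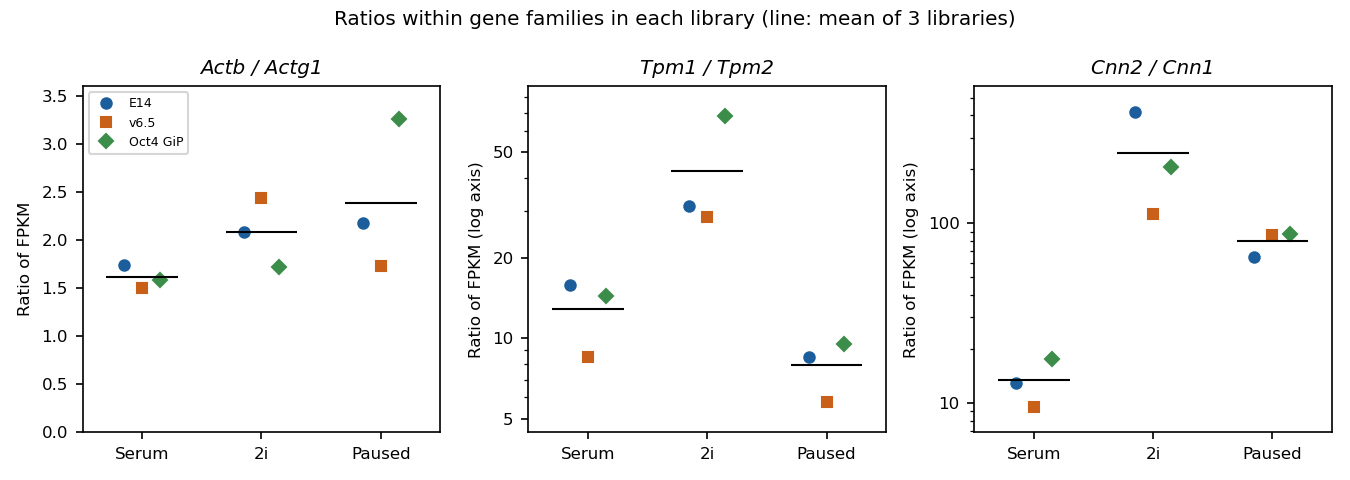
Ratio of FPKM within 3 gene families in each library, by condition, with 1 point per line and a bar at the mean; the axis of Actb to Actg1 is linear from 0 and the others are log axes. Tpm1 to Tpm2 is 28.4 or more in 2i and 9.48 or less in Paused, and Actb to Actg1 runs from 1.5 to 3.25 with overlap between conditions. Cnn2 to Cnn1 in 2i rests on Cnn1 levels of 0.104 FPKM or less, so its size there is uncertain.

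S100a6, a small calcium-binding protein of growing and mesenchymal cells, did not separate 2i from Paused. It stood at 117, 33.7 and 115 FPKM in Serum, at 8.31, 14.5 and 12.1 in 2i, and at 17.3, 6.89 and 10.7 in Paused. All Serum libraries were above all others, and the v6.5 Serum library was well below the other Serum libraries. The difference in log2(FPKM + 1) was -2.71 ± 0.59 between Paused and Serum and -2.66 ± 1.32 between 2i and Serum. Between Paused and 2i it was -0.05 ± 0.98, with E14 at 0.97, v6.5 at -0.97 and Oct4 GiP at -0.15.

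**Figure D3:**
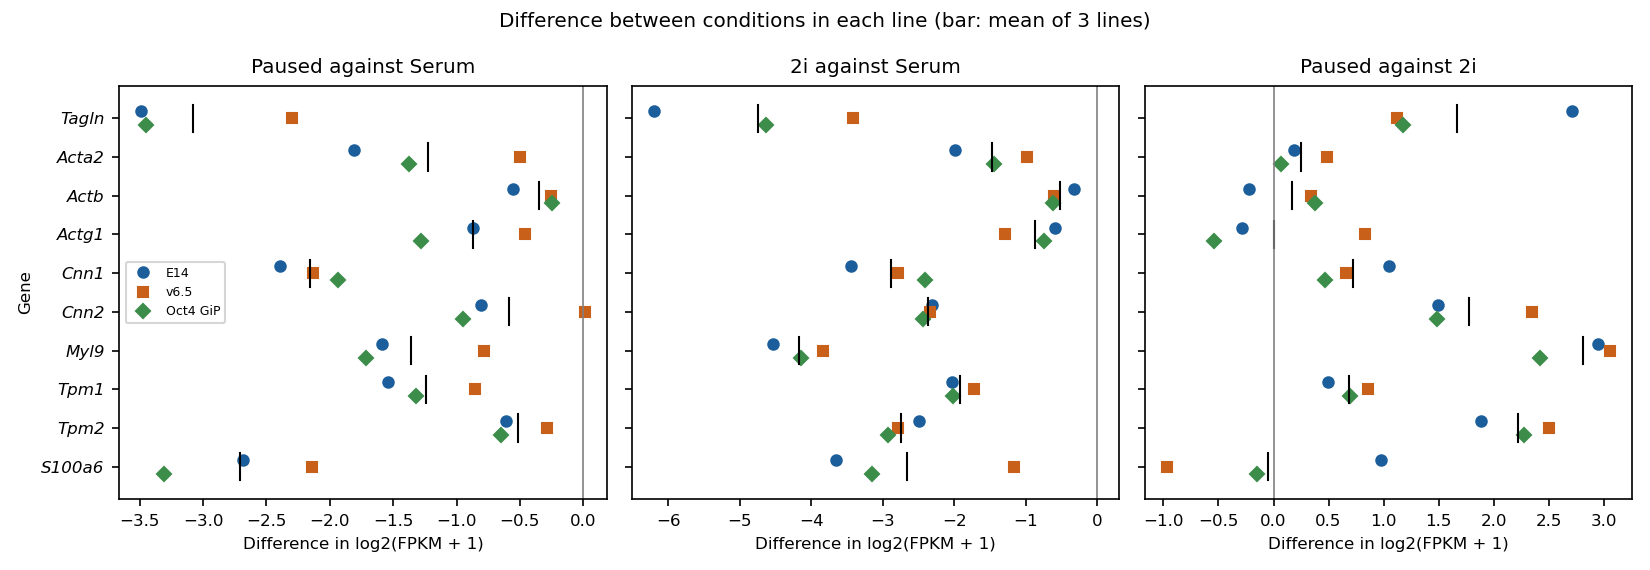
Difference in log2(FPKM + 1) between conditions in each line for each gene, with a bar at the mean of the 3 lines and a vertical line at 0. In 2i against Serum every point is below 0; in Paused against Serum the v6.5 point of Cnn2 is at 0.0099; in Paused against 2i, Actb, Actg1 and S100a6 have points on both sides.

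Counted over the 10 genes in FPKM, every 2i library was below every Serum library for 10 of 10, against 22.4% of all tested genes. Every Paused library was below every Serum library for 8 of 10, all but Cnn2 and Tpm2, against 21.3%. Every Paused library was above every 2i library for 7 of 10, all but Actb, Actg1 and S100a6, against 23.6%. The genes were picked for such differences, so nothing is read from these counts. The same holds for the counts of calls that follow, at an adjusted or an unadjusted p. In the limma-trend fit over all 12711 genes with the line as a block, 6 of the 10 had an adjusted p under 0.05 and were lower in Paused than in Serum, against 10.5% of all genes. For 2i below Serum the count was 10, against 18.9%, and for Paused above 2i it was 6, against 19.8%. The count of 6 for Paused against Serum went to 4, 6 and 0 when the Serum library of E14, v6.5 or Oct4 GiP was left out. Of all 12711 genes 422, 503 and 4 were then lower at an adjusted p under 0.05, from 1340 with all libraries. With the Paused library of each line left out, in that order, the count was 0, 1 and 0, against 18, 21 and 9 of all genes. Where the count was 0, it was 7, 8 and 8 at an unadjusted p under 0.05 in limma-trend. These are the fits without E14 Paused, Oct4 GiP Serum and Oct4 GiP Paused. Of all 12711 genes 1814, 1850 and 2049 were lower at that p. For Paused above 2i the count was 4 without E14 2i and without any 1 of the 3 Paused libraries, 5 without the line block and 3 without Oct4 GiP altogether. Of all 12711 genes 2522 were called higher without E14 2i. Without the Paused library of E14, v6.5 or Oct4 GiP 1516, 1716 and 1604 were, without the line block 2098 and without Oct4 GiP 822. Without Oct4 GiP the count for 2i below Serum was 6, against 554 of all genes. For Paused below Serum it was 0 without any 1 of the 3 lines, against 1, 1 and 4 of all genes without E14, Oct4 GiP and v6.5. There limma-trend gave 8, 6 and 9 at an unadjusted p under 0.05 without E14, Oct4 GiP and v6.5. Of all 12711 genes 2120, 1525 and 1973 were lower at that p. The median log2 fold change of the 10 was -1.23, -2.51 and 0.70 for Paused against Serum, 2i against Serum and Paused against 2i. The median of all tested genes was -0.01, 0.02 and -0.03.

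The authors' second set of columns, headed as normalized expression, multiplies each library by 1 constant, from 1.81 to 1.99 in Paused, 2.45 to 3.17 in 2i and 3.40 to 3.74 in Serum. On that scale the median of all tested genes moved to -0.88, -0.33 and -0.56 in the same comparisons, and the median of the 10 genes to -2.20, -2.93 and 0.57. Between Paused and 2i the values of Acta2, Actb and Actg1 turned to -0.19, -0.40 and -0.56 there, from 0.25, 0.17 and 0.0032 in FPKM. Acta2, Cnn2 and Tpm1, apart between Paused and 2i in FPKM, overlapped on that scale. Tpm1 stood there at 146, 132 and 124 in Paused and at 180, 96.0 and 105 in 2i. Cnn2 and Tpm2, which overlapped between Paused and Serum in FPKM, did not overlap on that scale. Ratios between genes of 1 library are the same on both scales.

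The lines differed within each condition. Over the 10 genes E14 was the highest line for 7 in Serum, 6 in 2i and 6 in Paused. In Paused, Oct4 GiP was the lowest line for 7, and in Serum v6.5 was the lowest for 6. The gap between Paused and Serum in log2(FPKM + 1) was smallest in v6.5 for 8 of the 10 genes, all but Actb and Cnn1. For Cnn1, which is low enough for the added 1 to weigh, the ratio of Serum to Paused in FPKM was lowest in E14 at 8.78, with v6.5 at 8.91 and Oct4 GiP at 9.71. With 1 library per line and condition, a difference between lines cannot be tested.

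Markers of other cell types were measured beside these genes. The summed FPKM of 8 fibroblast or feeder markers ran from 4.50 to 12.3 in Serum, 2.28 to 4.17 in 2i and 0.893 to 2.17 in Paused. The E14 Serum library was the highest with 12.3, as it was for Tagln. Of the 8, Col1a2, Col3a1, Dcn, Lum and Postn stayed under 1 FPKM in all 9 libraries. Col1a1 reached 6.96 FPKM, Thy1 3.61 and Pdgfrb 2.75 in their highest libraries. Lum was at most 0.0151 FPKM, and Col3a1, Dcn, Lum and Postn were listed at 0 in at least 1 library. The sum of 6 mesoderm markers was 17.8 FPKM in E14 Serum, mostly of T (Brachyury, 15.1 FPKM at its highest), and ran from 1.55 to 4.07 in the other 8 libraries. Trophoblast markers summed to 15.1 FPKM in E14 Serum, 4.59 in v6.5 Serum and 6.93 in Oct4 GiP Serum, and to 1.58 to 8.23 elsewhere. Primitive endoderm markers stayed between 1.53 and 3.59 throughout. The part of such cells in the levels of the 10 genes was not tested.

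**Figure D4:**
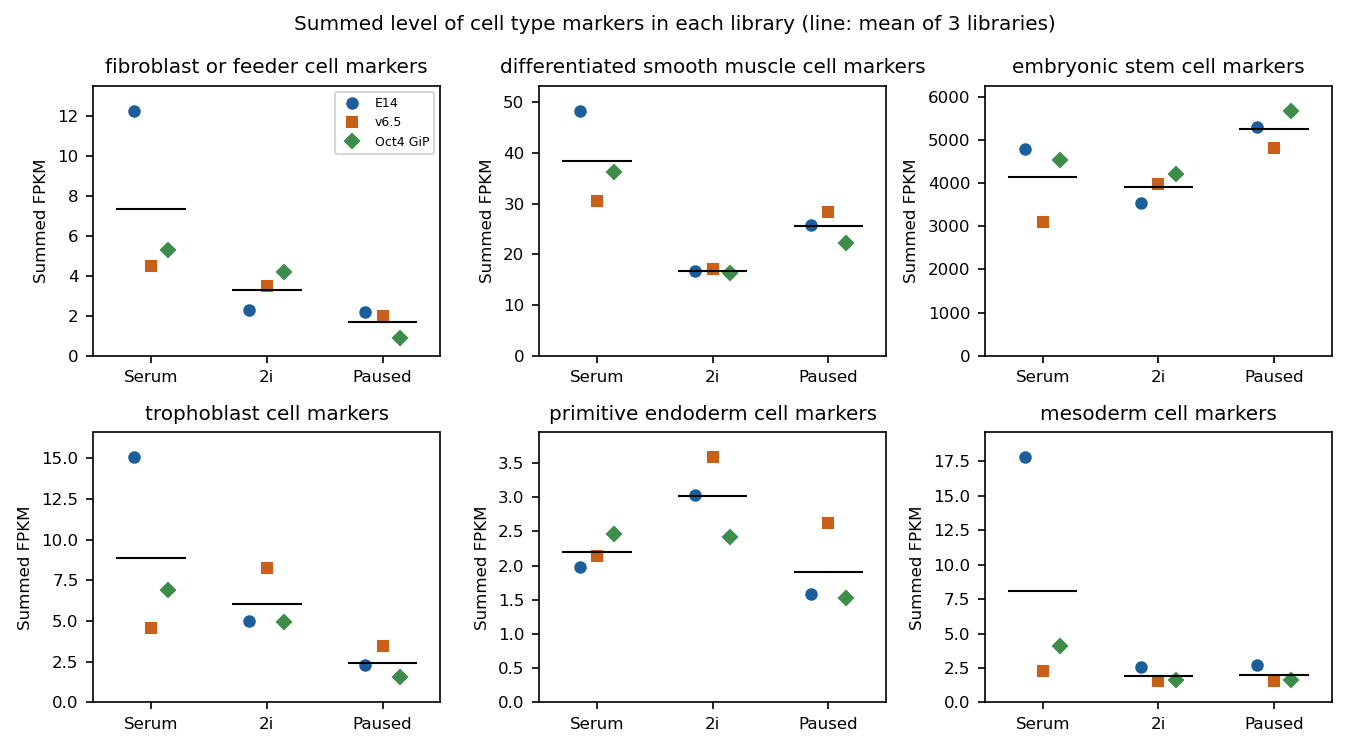
Summed FPKM of 6 marker lists in each library on linear axes from 0, by condition, with 1 point per line and a bar at the mean. The E14 Serum library is highest for fibroblast or feeder markers with 12.3 and for mesoderm markers with 17.8, and the lowest sum of ES cell markers is 3089, in v6.5 Serum.

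Other genes of the actin system were tested with limma-trend, with the line as a block and p adjusted by Benjamini-Hochberg over all 12711 genes. They came from 9 lists, 111 rows in all, of which 98 passed the filter. Between Paused and Serum 31 of the 98 fell and 1 rose, against 10.5% and 7.64% of all tested genes. Between 2i and Serum 31 fell and 12 rose, against 18.9% and 21.7%. Between Paused and 2i 25 fell and 19 rose, against 24.6% and 19.8%, close to the share of all genes in both directions. The first comparison depended on single libraries. Its 32 calls went to 7, 23 and 0 when the Serum library of E14, v6.5 or Oct4 GiP was left out. The 2311 calls of all tested genes went to 729, 787 and 12. With the Paused library of each line left out the calls in the lists were 0, 1 and 1, and 18 without Oct4 GiP 2i. Those of all tested genes were 38, 38 and 16, and 1483. Where the count was 0, limma-trend gave 4 genes higher and 40 lower without E14 Paused, and 4 and 38 without Oct4 GiP Serum, at an unadjusted p under 0.05. All 12711 tested genes gave 1568 and 1814, and 1436 and 1850. In 2i against Serum the number of calls was 43 with all libraries and 27 without Oct4 GiP Serum. Over all tested genes it was 5161 and 2969. Each of the 19 genes called in Paused against Serum and open to naming lost its call without at least 3 of the 9 libraries, with a highest adjusted p from 0.074 to 0.17. In 2i against Serum, Ctgf lost its call without Oct4 GiP Serum, and Cyr61 without that library or E14 Serum. Acta1 and Mkl2 lost theirs without E14 Serum, Oct4 GiP Serum or Oct4 GiP 2i, Smtn without these or E14 2i, and Fhl1 without these or v6.5 Serum. Cnn3 lost its call without the Serum or the 2i library of v6.5 or Oct4 GiP, and Anxa5 without these or E14 2i. In Paused against 2i, Tpm3 lost its call without E14 Paused, Dstn without that library or Oct4 GiP 2i, and Enah without it or v6.5 Paused. Rock2 lost its call without any Paused library or Oct4 GiP 2i, and Flnc without any 2i library or the Paused library of E14 or v6.5. The adjusted p of these genes reached at most 0.11. On the authors' normalized columns the numbers lower and higher were 89 and 0, 52 and 7, and 54 and 9. Of all 12711 tested genes they were 9779 and 48, 4538 and 1240, and 6922 and 789 there. Of the genes open to naming, those called in FPKM but not on those columns were Lima1 in Paused against Serum, Cnn3, Mkl2, Itga5, Vasp and Anxa5 in 2i against Serum, and Smtn, Flna, Rhoc, Rock2, Myh10, Tmod2 and Dstn in Paused against 2i.

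Of 3 other actin genes Acta1, skeletal muscle alpha actin, was tested and fell from 47.5 ± 9.21 FPKM in Serum to 30.6 ± 2.60 in Paused (log2 fold change -0.61 ± 0.15, SE; adjusted p = 0.043) and to 29.0 ± 5.26 in 2i (-0.69 ± 0.15, adjusted p = 0.015). Its mean FPKM was above that of Acta2 in every condition, with the same limit on fragments shared between actins. Actc1 and Actg2 did not pass the filter.

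Among 12 other smooth muscle genes 7 were tested, and 3 fell in Paused against Serum and 0 rose (3 and 0 at an unadjusted p under 0.05 in limma-trend). The share that fell was 42.9%, against 10.5% of all tested genes. Csrp1, a LIM protein of the cytoskeleton, fell from 44.3 ± 23.0 to 11.7 ± 3.66 FPKM (-1.75 ± 0.22), and Cald1, caldesmon, which holds actin from myosin, from 17.9 ± 7.55 to 5.21 ± 2.59. Des fell from 3.14 ± 0.354 to 1.29 ± 0.804 FPKM and was not called without the line block. In 2i Csrp1 and Cald1 stood at 40.5 ± 2.74 and 24.3 ± 2.02 FPKM, and neither passed the test against Serum. Against 2i both fell in Paused (-1.74 ± 0.22, adjusted p = 0.0020, and -2.13 ± 0.38, adjusted p = 0.0060). Smtn fell in 2i against Serum and was higher in Paused than in 2i (20.3 ± 2.20 against 11.9 ± 1.16 FPKM). The neuronal and non-muscle calponin Cnn3 rose in 2i against Serum by 0.42 ± 0.12, not called without the block, and fell in Paused against 2i (-0.65 ± 0.12). Myh11, Lmod1, Synpo2, Mylk and Myocd did not pass the filter.

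Srf fell from 45.3 ± 8.34 FPKM in Serum to 31.5 ± 0.621 in Paused (-0.50 ± 0.13, adjusted p = 0.043, not called without the block) and to 26.3 ± 3.38 in 2i (-0.76 ± 0.13, adjusted p = 0.0057). Of 10 tested genes of SRF, its coactivators and targets, 1 fell and 0 rose in Paused against Serum (3 and 1 at an unadjusted p under 0.05), and 4 fell and 1 rose in 2i against Serum. The share that fell was 10% and 40%, against 10.5% and 18.9% of all tested genes. The share that rose was 0% and 10%, against 7.64% and 21.7%. Zyx, zyxin of focal adhesions, fell from 30.4 ± 8.99 to 6.22 ± 2.46 FPKM in 2i (-2.14 ± 0.24, adjusted p = 0.0019). The LIM protein gene Fhl1 fell by 1.12 ± 0.27 and was not called without the block, and Mkl2, an MRTF coactivator, rose by 0.39 ± 0.096. Between Paused and 2i 2 rose and 0 fell (2 and 2 unadjusted), Zyx (1.26 ± 0.24, not called without the block) and filamin A, Flna, from 83.4 ± 8.06 to 152 ± 15.1 FPKM (0.86 ± 0.11). The share that rose was 20% there, against 19.8% of all tested genes, and 24.6% of all tested genes fell.

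**Figure D5:**
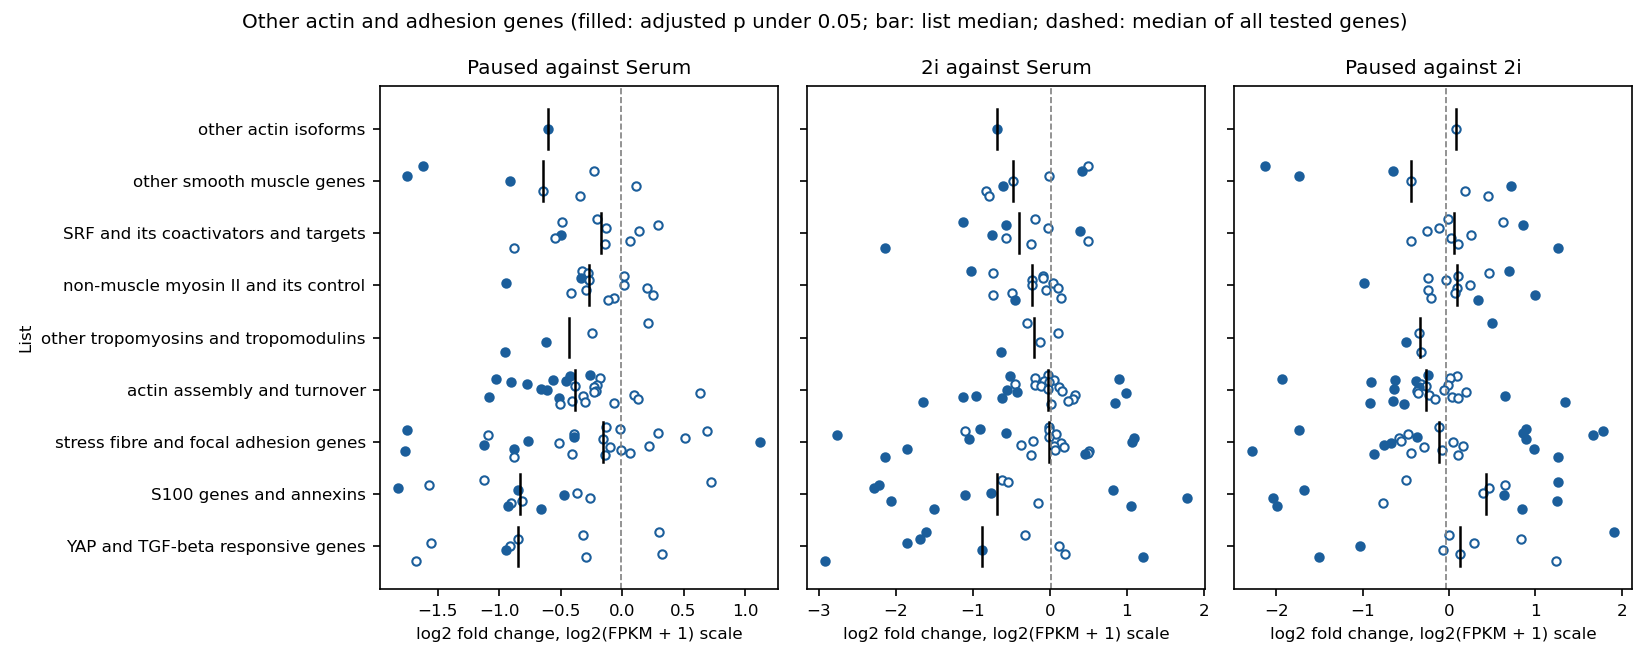
Log2 fold change of each tested gene of 9 lists in 3 comparisons, with filled points for an adjusted p under 0.05, a bar at each list's median and a dashed line at the median of all tested genes. In Paused against Serum 1 filled point lies above 0 and in Paused against 2i filled points lie on both sides; genes of more than 1 list appear in each.

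Of 13 tested genes of non-muscle myosin II and its control, 2 fell and 0 rose in Paused against Serum (4 and 0 unadjusted), and 2 fell and 0 rose in 2i against Serum (5 and 0 unadjusted). The share that fell was 15.4% in both, against 10.5% and 18.9% of all tested genes. Myh10, a heavy chain, fell from 31.7 ± 1.62 to 15.2 ± 2.01 FPKM in 2i (-1.02 ± 0.094, adjusted p = 0.0013) and rose in Paused against 2i to 25.1 ± 2.71 (0.69 ± 0.094). The kinase gene Rock2 fell in 2i (-0.46 ± 0.087). In Paused against 2i it was called higher in FPKM (0.34 ± 0.087), not without the block, and stood at -0.19 on the normalized columns. The light chain Myl6b fell in Paused against both Serum and 2i (-0.94 ± 0.19 and -0.98 ± 0.19). The joined row of Myl12a and Myl12b, the light chains closest to Myl9, went from 311 ± 38.6 FPKM in Serum to 246 ± 19.4 in Paused (-0.33 ± 0.085), not called without the block.

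The other tropomyosins kept higher levels than Tpm2 in every condition. Tpm4 fell from 69.3 ± 5.80 FPKM in Serum to 35.2 ± 3.61 in Paused (-0.96 ± 0.13, adjusted p = 0.013) and 44.3 ± 4.28 in 2i (-0.63 ± 0.13, adjusted p = 0.010). Tpm3 fell to 183 ± 4.98 FPKM in Paused from 284 ± 33.0 in Serum (-0.62 ± 0.10) and from 261 ± 30.5 in 2i (-0.50 ± 0.10). Both had lower means in Paused than in 2i, where Tpm1 and Tpm2 had higher ones.

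Genes of actin assembly and turnover made up the largest list. Of 25 tested, 11 fell and 0 rose in Paused against Serum (14 and 0 unadjusted), 7 fell and 3 rose in 2i against Serum, and 10 fell and 2 rose in Paused against 2i. The share that fell was 44%, 28% and 40%, against 10.5%, 18.9% and 24.6% of all tested genes. The share that rose was 0%, 12% and 8%, against 7.64%, 21.7% and 19.8%. Arpc1b, a subunit of the Arp2/3 complex that starts branched filaments, had 53.2 ± 16.1 FPKM in Serum, 102 ± 37.4 in 2i and 25.6 ± 7.20 in Paused. It rose in 2i (0.90 ± 0.11, adjusted p = 0.0024) and fell in Paused against Serum (-1.03 ± 0.11, adjusted p = 0.011), neither called without the block, and fell in Paused against 2i (-1.93 ± 0.11, adjusted p = 0.00031). The joined row of Arpc4 and Ttll3 went from 80.1 ± 6.97 FPKM in Serum to 42.1 ± 1.44 in Paused (-0.91 ± 0.094). Thymosin beta 4, Tmsb4x, which binds monomeric actin, fell from 390.1 ± 111 FPKM in Serum to 122 ± 28.8 in 2i (-1.65 ± 0.21, adjusted p = 0.0027) and stood at 312 ± 74.7 in Paused, above 2i (1.35 ± 0.21). Destrin, Dstn, which severs filaments, had 295 ± 22.9, 151 ± 16.9 and 238 ± 37.0 FPKM in Serum, 2i and Paused, lower in 2i than in Serum (-0.96 ± 0.15) and higher in Paused than in 2i (0.65 ± 0.15). Twinfilin 1, Twf1, had 28.7 ± 2.77, 52.7 ± 6.20 and 27.3 ± 2.54 FPKM, rose in 2i (0.85 ± 0.087) and fell in Paused against 2i (-0.92 ± 0.087).

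Stress fibre and focal adhesion genes moved both ways. Of 23 tested, 6 fell and 1 rose in Paused against Serum, 6 fell and 3 rose in 2i against Serum, and 6 fell and 7 rose in Paused against 2i. The share that fell was 26.1% in each, against 10.5%, 18.9% and 24.6% of all tested genes. The share that rose was 4.35%, 13.04% and 30.4%, against 7.64%, 21.7% and 19.8%. Flnc, muscle filamin C, fell from 12.2 ± 7.36 FPKM in Serum to 0.752 ± 0.147 in 2i (-2.77 ± 0.46, adjusted p = 0.0057) and rose in Paused against 2i to 5.05 ± 2.86. Pdlim7, a PDZ and LIM protein of stress fibres, fell from 73.7 ± 5.30 to 20.8 ± 9.44 FPKM in 2i (-1.86 ± 0.22). Tes, testin of focal adhesions, had 9.79 ± 2.09, 14.6 ± 4.39 and 2.16 ± 0.606 FPKM in Serum, 2i and Paused, and fell in Paused against both (-1.77 ± 0.17 and -2.28 ± 0.17). Lima1, which cross-links filaments, rose in Paused and in 2i against Serum (1.12 ± 0.17 and 1.07 ± 0.17), neither called without the block. Enah, a filament elongation factor, rose in Paused against 2i from 67.0 ± 30.9 to 216 ± 22.7 FPKM (1.79 ± 0.41). Itga5, the fibronectin receptor subunit, rose in 2i (1.09 ± 0.24).

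The relatives of S100a6 did not share 1 pattern. Of 12 tested S100, annexin and partner genes, 5 fell and 0 rose in Paused against Serum (9 and 1 unadjusted), 6 fell and 3 rose in 2i against Serum, and 3 fell and 4 rose in Paused against 2i. The share that fell was 41.7%, 50% and 25%, against 10.5%, 18.9% and 24.6% of all tested genes. The share that rose was 0%, 25% and 33.3%, against 7.64%, 21.7% and 19.8%. S100a10, the partner of annexin A2, fell from 147 ± 47.4 to 33.6 ± 7.18 FPKM in 2i (-2.07 ± 0.25, adjusted p = 0.0022) and stood at 80.4 ± 5.16 in Paused, above 2i (1.25 ± 0.25). S100a1, best known from heart, rose from 1.04 ± 0.224 to 6.09 ± 1.55 FPKM in 2i (1.78 ± 0.18) and was at 0.695 ± 0.0996 in Paused. Anxa3 fell from 13.4 ± 9.91 FPKM in Serum to 2.66 ± 2.31 in Paused (-1.82 ± 0.46, not called without the block) and 1.36 ± 0.207 in 2i (-2.28 ± 0.46). Anxa5 rose in 2i and fell in Paused (0.82 ± 0.23 and -0.85 ± 0.23 against Serum), neither called without the block, and fell in Paused against 2i (-1.67 ± 0.23).

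Genes of the YAP and TGF-beta pathways, other inputs to contractile genes, were taken as a further list. Of 9 tested, 5 fell and 1 rose in 2i against Serum, 1 fell and 0 rose in Paused against Serum (4 and 0 unadjusted), and 2 fell and 1 rose in Paused against 2i. In that order 55.6%, 11.1% and 22.2% fell, against 18.9%, 10.5% and 24.6% of all tested genes. The share that rose was 11.1%, 0% and 11.1%, against 21.7%, 7.64% and 19.8%. Thbs1, thrombospondin 1, fell from 9.23 ± 7.58 to 0.104 ± 0.0555 FPKM in 2i (-2.91 ± 0.48, adjusted p = 0.0055). Ctgf and Cyr61, textbook targets of YAP, fell in 2i (-1.68 ± 0.36 and -1.85 ± 0.45), from 33.9 ± 3.12 and 34.2 ± 7.51 FPKM to 10.7 ± 4.79 and 9.52 ± 5.37. Ajuba, a LIM protein that acts on the Hippo pathway, rose from 41.6 ± 3.72 FPKM in 2i to 162 ± 42.8 in Paused (1.91 ± 0.13, adjusted p = 0.00051). Tgfb1 fell in Paused against Serum (-0.95 ± 0.20), not called without the block. The receptor Tgfbr2 rose in 2i from 0.427 ± 0.152 to 2.40 ± 1.08 FPKM (1.21 ± 0.21) and was lower in Paused than in 2i (-1.51 ± 0.21).

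Profiles over the 9 libraries were compared with those of Tagln and Actb by Pearson correlation of log2(FPKM + 1), as a description of libraries that share conditions and lines. Among genes with a mean FPKM of at least 5, the 5 most like Tagln were Igfbp3 (r = 0.988), which binds insulin-like growth factors, the translation factor gene Eif3k (0.977), the keratin Krt19 (0.972), Tpm1 (0.963) and Plac8 (0.960). Of these Igfbp3 ran from 2.31 to 66.3 FPKM, while Eif3k only went from 323 to 425. Within the 10 genes Cnn1, below that level, had r = 0.963 with Tagln, Acta2 0.953, S100a6 0.921 and Myl9 0.910, against 0.717 for Actb and 0.670 for Actg1. The 5 genes most like Actb were Acp1 (0.949), Zfp639 (0.948), Psmd9 (0.947), Ybx3 (0.947) and Exosc9 (0.943), and none of the other 9 genes was among them. Actg1 had r = 0.806 with Actb.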

How the data were processed

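The members and gene lists were chosen with earlier results of these data known. FPKM were deposited by the authors in 1 table, made with Cuffnorm on mm10 per the submitters' processing notes; no source names the version, aligner, annotation, strand setting or scaling between libraries. The authors deposited a second signal per library, headed normalized expression, which is FPKM times 1 constant of unstated origin. Total RNA (250 ng per library) carried ERCC spike-in RNA, per the labels' protocols. Of 29801 rows, 5644 without a gene name and 113 identical repeats were left out. The table holds no read counts, so depth is unknown and counting intervals could not be computed, and a listed 0 may be a failed estimate.

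The 12711 genes that reached 1 FPKM in 3 or more libraries were fitted on log2(FPKM + 1), pseudocount 1, by limma-trend (limma 3.58.1, R 4.3.3), all 9 libraries together, the cell line as a block, Benjamini-Hochberg over all tested genes, threshold 0.05. The fit was tested on simulated data. The pairing comes from the labelled line: deviations from condition means correlated at -0.0008 to 0.401 within a line and -0.243 to 0.0938 between lines. The means come from the same 3 libraries per condition, so this contrast is partly built in and is no test of the pairing. Whether libraries of a condition came from separate cultures beyond the 3 lines is not stated. The block removes differences in level between the lines. The p-values thus rest on how far differences between conditions varied over these lines, with the variance estimate drawing on all genes. For each list and comparison, up to 3 called genes per direction with the largest change could be named, or the 2 most abundant where none was called; some of these are not named. The joined rows of Myl12a with Myl12b and Arpc4 with Ttll3 cannot be split, and Diaph1 to Diaph3 are listed as Diap1 to Diap3.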

Additional observations from a re-analysis of the deposited data

Results flagged for a closer look

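In 4 cases 1 line had the opposite sign to the others in FPKM. Each rests on 1 library per line and condition, so the difference was not tested. For Actb in Paused against 2i, E14 was at -0.22 in log2(FPKM + 1), v6.5 at 0.34 and Oct4 GiP at 0.38. For Actg1 in the same comparison v6.5 was at 0.83, E14 at -0.28 and Oct4 GiP at -0.54. For S100a6, again in Paused against 2i, E14 was at 0.97, v6.5 at -0.97 and Oct4 GiP at -0.15. For Cnn2 in Paused against Serum v6.5 was at 0.0099, E14 at -0.81 and Oct4 GiP at -0.95.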

How the results depend on the processing

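The number of genes called in Paused against Serum went from 2311 to 9827 on the normalized columns, 48 of them higher and 9779 lower, where 971 and 1340 were in FPKM. Without the libraries of E14, Oct4 GiP or v6.5 it was 4, 4 and 7, and leaving out 1 library gave 12 to 3223. For pathway genes, 32 in FPKM, it was 89 on the normalized columns, 15 with no filter and 20 without the replicate block. It was 0 without each line, and 0 to 44 without 1 library. At an unadjusted p under 0.05 in limma-trend, 5 and 37 were higher and lower without E14, 2 and 32 without Oct4 GiP, 2 and 49 without v6.5. Of all 12711 tested genes 1701 and 2120, 1024 and 1525, and 1629 and 1973 were. In 2i against Serum 5161 genes became 1269 without Oct4 GiP, 2673 without v6.5 and 2985 with the 6 libraries compared, and 2969 to 5436 without 1 library. The 43 pathway genes there became 17 without Oct4 GiP and 27 to 48 without 1 library. In Paused against 2i 5638 genes became 2073 without Oct4 GiP and 3720 without v6.5, and 3543 to 5611 without 1 library. The 44 pathway genes became 20 without Oct4 GiP and 30 to 51 without 1 library. The replicate block, the cell line, changed the other calls as given in the text.

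Signs of means over the lines were followed for the members, and for list genes in the comparisons where they were open to naming. Among these, every sign change was in Paused against 2i. Other genes and comparisons were not followed. On the normalized columns Acta2 was at -0.19, Actb at -0.40, Actg1 at -0.56, Acta1 at -0.47 and Rock2 at -0.19. Quantile normalization put Actb at -0.024, Actg1 at -0.066 and S100a6 at 0.034, and centring on the median gene put S100a6 at 0.035. Actg1 was at -0.31 without v6.5 2i or v6.5 Paused and at -0.41 without v6.5, within -0.31 to 0.24 over single left-out libraries. S100a6 was at 0.55 without v6.5 2i, 0.038 without v6.5 Paused, 0.13 without Oct4 GiP Paused, 0.0023 without Oct4 GiP and 0.41 without v6.5, within -0.55 to 0.55 over single libraries. Acta1 was at -0.019 without v6.5 Paused, -0.026 without Oct4 GiP Paused and -0.041 without Oct4 GiP, and 0.29 at most, without E14 Paused. The cause of these changes was not tested.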
